A study of Mus musculus with 21 samples.

Results

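Steamed grain given on top of a high-fat diet was compared with the same diet alone, in epididymal fat of mice, using the 3 arrays labelled SMG and the 3 labelled HFD. These 6 arrays belong to a set of 21 from 7 diet groups, and every gene with a probe of its own entered, 16248 in all. Each array goes by its group and the number that ends its title, read as an animal's number: SMG 5, 8 and 12 against HFD 4, 6 and 7. The number 12 exceeds the 10 mice stated for SMG, so these numbers may not run within a group.

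All animals were male C57BL/6J, an inbred mouse strain, 4 weeks old at arrival, housed singly and given 1 week on chow before 12 weeks on their diets. HFD mice ate a diet with 40% of its energy from fat, and SMG mice ate that diet with 0.3% steamed grain by weight. The normal diet group (ND, 3 arrays) had 10% of energy from fat and was used here as a reference point. Of the other groups, BC, L_FMG and H_FMG also ate the high-fat diet. BC had 0.3% of the bacterium Bacillus coagulans, L_FMG 0.3% and H_FMG 0.9% fermented mixed grain. The labels do not describe RMG or its diet, and counting it among the other supplemented groups is an assumption. Nothing in the labels says that the arrays of a group were separate animals, so p-values measure the spread between these samples, which may be technical. Levels are log2 values as deposited, so a difference of 1 is a 2-fold difference, with the base of the logarithm inferred from the range of the values.

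White fat stores triglyceride in adipocytes and also holds endothelial cells, fibroblasts and immune cells. When mice gain fat on a rich diet, macrophages gather in the epididymal depot, take up lipid and switch on lysosomal genes, while adipocyte genes for fat handling often decline. In bulk tissue, fewer cells of a type and less RNA per cell cannot be told apart. The labelled tissue showed its defining genes at the top of the scale: Fabp4, the adipocyte fatty acid carrier, was 12.11, 11.98 and 12.32 in SMG 5, 8 and 12, and Lep, the satiety hormone of adipocytes, 11.43, 11.51 and 11.33. No gene checks a grain supplement, so the SMG label itself could not be tested on the arrays.

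No gene passed the test between SMG and HFD, and most of what the SMG arrays showed was a difference among themselves. SMG 12 had lower macrophage, lysosome and cell cycle levels than the 5 other arrays and higher endothelial and triglyceride synthesis levels, while SMG 8 lay close to the HFD arrays and SMG 5 stood above them in cell cycle genes. At an adjusted p under 0.05 (limma, Benjamini-Hochberg), 0 of 16248 genes were called, a share of 0%, and the lowest adjusted p was 1 after rounding. At an unadjusted p under 0.05 there were 300 genes (1.85%), 186 higher in SMG (1.14%) and 114 lower (0.702%), where uniform p-values would give 5%. The 3 SMG arrays lay wholly above the 3 HFD arrays in 772 genes (4.75%) and wholly below in 571 (3.51%).

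The precision of the fit sets what a call of 0 can mean. The fit took its spread from all groups of the series, so groups noisier than SMG and HFD entered each SE. The median SD over genes was 0.136 in SMG and 0.117 in HFD, and from 0.131 (RMG) to 0.191 (ND) in the other groups. With the SMG and HFD arrays alone, genes at an unadjusted p under 0.05 (limma) rose from 300 to 519, still with 0 calls. The values below are from the fit with all groups. The median SE of a gene's difference was 0.147, and the median 95% interval reached 0.306 to either side. The interval lay within 1 log2 unit of 0 for 16086 genes (99%) and within 0.5 for 12318 (75.8%). The median difference over all genes was 0.00484, and 53 genes (0.326%) differed by over 0.5. Only Igkv9-120, an antibody light chain segment, differed by over 1, and its difference of 1.42 (SE 0.99) came from SMG 12.

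The classic obesity markers had overlapping SMG and HFD arrays in all 21 measured members of a panel of 32, and none reached an unadjusted p of 0.05. Their median difference was 0.04, beside 0.00484 for all genes. Lep was 11.48, 11.46 and 11.61 in HFD 4, 6 and 7, close to the SMG values above, with a difference of -0.09 (95% interval -0.47 to 0.29). Adipoq, the insulin-sensitising hormone adiponectin, was 8.68, 9.32 and 9.53 in SMG and 9.33, 9.10 and 9.37 in HFD, a difference of -0.09 (-0.45 to 0.28). SMG 5 was the lowest array for Adipoq and SMG 12 the highest.

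Fat-making genes of the panel had intervals that included 0. The master adipocyte factor Pparg differed by 0.05 (-0.20 to 0.30), and the fatty acid synthase Fasn by 0.05 (-0.22 to 0.33). The desaturase Scd1 differed by 0.04 (-0.21 to 0.28), and the fatty acid transporter Cd36 by -0.04 (-0.23 to 0.14). The acylation enzyme Gpam differed by 0.17 (-0.18 to 0.51) and the carboxylase Acaca by 0.16 (-0.27 to 0.59), the least precise of these. Srebf1, which drives lipid synthesis genes, had the smallest p of the panel: 6.95, 7.02 and 7.27 in SMG and 6.99, 6.64 and 6.86 in HFD, a difference of 0.25 (SE 0.13, unadjusted p = 0.0744).

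The inflammatory members did not separate the groups either. Tnf was 5.72, 5.83 and 5.08 in SMG against 5.50, 5.75 and 5.46 in HFD, a difference of -0.03 (-0.48 to 0.41). The monocyte attractant Ccl2 was 7.36, 6.78 and 6.35 against 6.64, 7.04 and 6.55, a difference of 0.09 (-0.42 to 0.61). In both genes SMG 12 was the lowest of the 6 arrays. Il6 lay near the bottom of the scale, between 1.65 and 1.84 on all 6.

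The 20 genes with the smallest p, 10 in each direction, are descriptions and not calls, since each had an adjusted p of 1. Their differences ran from 0.28 to 0.51 upward and from 0.39 to 0.82 downward. The 3 SMG arrays lay apart from the 3 HFD arrays in 19 of the 20, against 8.27% of all genes, but the smallest p picks such genes. Of the 20, 7 were among the dimmest genes, with a mean level of 3.41 or less over the 21 arrays. Olfr248, Olfr403, Olfr1271 and Olfr314 are odorant receptors, a large family of similar genes in which the probe's own member is uncertain.

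Hrk, a BH3-only protein that promotes cell death, had the smallest p among the higher genes. Its levels were 3.43, 3.30 and 3.35 in SMG and 3.02, 2.81 and 2.80 in HFD, a difference of 0.48 (SE 0.12, unadjusted p = 0.000493). The SMG values were tight and all above the highest HFD array, though all were dim. Btbd19, a BTB-domain protein, was 4.95, 4.87 and 4.85 against 4.54, 4.43 and 4.39, a difference of 0.43 (SE 0.12). Dpysl3, a cytoskeletal regulator of axon growth, was 6.31, 6.43 and 6.57 against 6.26, 5.94 and 5.95, where HFD 4 came close to SMG 5.

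Fbln2, the matrix glycoprotein fibulin-2, was the brightest of the higher genes. It was 8.61, 8.67 and 8.45 in SMG, 8.34, 8.29 and 8.26 in HFD, and 7.88, 7.81 and 7.84 in ND. The difference of SMG from HFD was 0.28 (SE 0.09, unadjusted p = 0.0058), and the 3 groups did not overlap. Trim63, a ubiquitin ligase best known from wasting muscle, was 4.47, 4.16 and 4.60 against 4.06, 3.89 and 3.79. Lin28a, an RNA-binding protein that blocks let-7 maturation, was 4.12, 3.98 and 4.10 against 3.67, 3.70 and 3.66. Elapor2, Grid1 (a glutamate receptor subunit), Olfr248 and Olfr403 completed this set, with differences of 0.45, 0.51, 0.51 and 0.39.

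S100a5, a small calcium-binding protein, had the smallest p of all genes. Its levels were 2.30, 1.66 and 1.58 in SMG and 2.45, 2.83 and 2.37 in HFD, a difference of -0.70 (SE 0.16, 95% interval -1.03 to -0.38, unadjusted p = 0.000217). SMG 5 lay just under the HFD arrays, and without it S100a5 was the 1 gene called, at -0.93 and an adjusted p of 0.0284. All 6 values were among the dimmest on the array. The HFD mean of S100a5, 2.55, was above the 2.03, 2.14, 2.05, 1.74 and 2.13 of ND, BC, RMG, L_FMG and H_FMG.

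Cytl1, a small secreted protein of cartilage and blood cells, had the most negative difference of any gene, with no call. It was 4.29, 4.56 and 4.63 in SMG and 5.04, 5.15 and 5.77 in HFD, a difference of -0.82 (SE 0.24). HFD 7 was the highest array and widened that difference. Rasl11a, a Ras-like GTPase, was 4.89, 4.66 and 4.91 against 5.51, 5.34 and 5.17, a difference of -0.52 (SE 0.15). Dpm2, a subunit of the enzyme that makes dolichol phosphate mannose for glycosylation, was 6.45, 6.62 and 6.29 against 6.96, 6.84 and 6.72.

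Oaz1, the antizyme that limits polyamine synthesis, was 6.05, 6.22 and 6.32 in SMG and 6.45, 6.83 and 6.56 in HFD, a difference of -0.42 (SE 0.14). Ccbe1, a secreted protein needed for lymphatic vessel growth, was 4.46, 4.34 and 4.81 against 4.86, 4.95 and 5.20, with SMG 12 almost level with HFD 4. Dchs2 (a large cadherin), Gpr151 (an orphan receptor), Olfr1271 and Olfr314 differed by -0.42, -0.44, -0.54 and -0.55. Olfr314 was the 1 gene of the 20 whose groups overlapped. In S100a5, Lin28a, Elapor2, Trim63, Olfr248 and Oaz1, among others, the means of ND and every other supplemented group also lay on the SMG side of HFD. Such differences were not particular to SMG. In others the ND mean was close to the HFD mean, as in Grid1 (3.63 and 3.56) and Rasl11a (5.31 and 5.34).

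**Figure D1:**
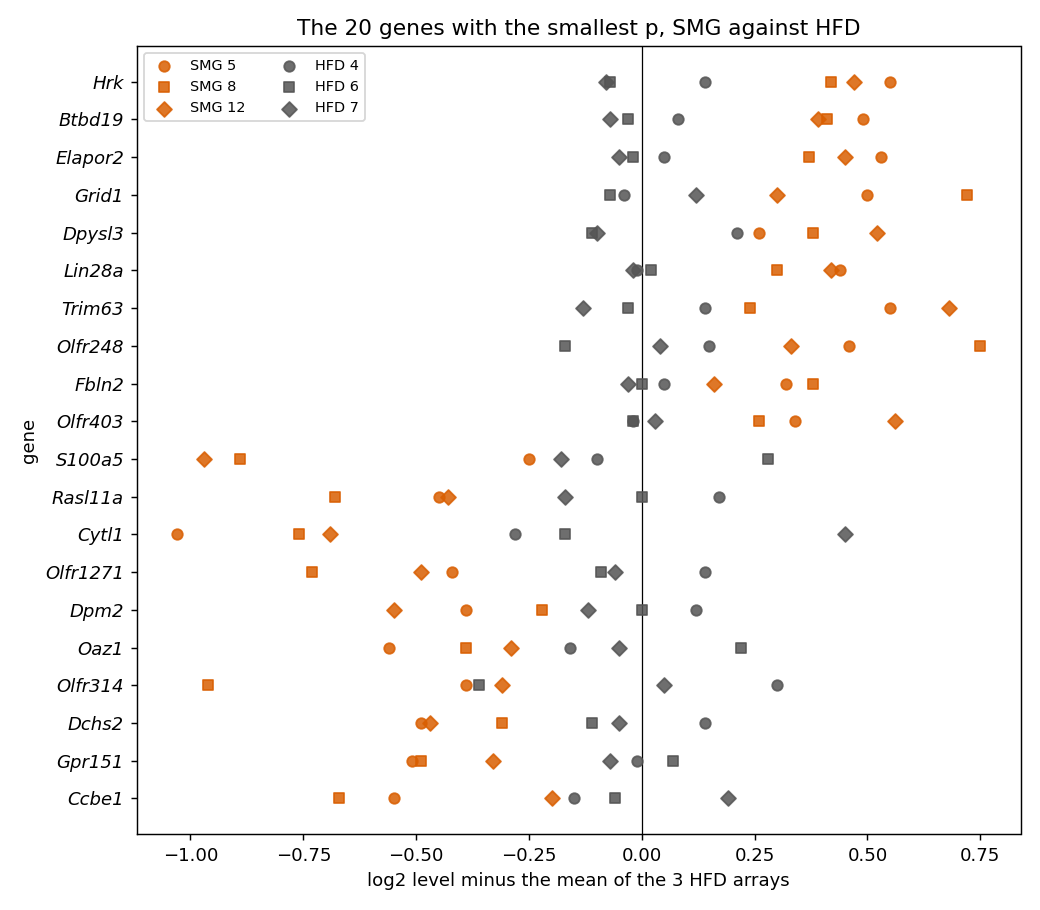
Log2 level of the 20 genes with the smallest p, as a difference from the mean of the 3 HFD arrays, with 1 point per array (orange SMG, grey HFD; circle, square and diamond for the arrays in the order of the key). The orange and grey points separate in all but Olfr314, and the differences of the group means run from -0.82 for Cytl1 to 0.51 for Grid1 and Olfr248.

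The second question was whether SMG stood apart from the other supplemented groups, in a contrast whose means, though not its shared spread, leave out the HFD arrays. It called 0 of 16248 genes (0%), with 484 at an unadjusted p under 0.05 (2.98%), and the lowest adjusted p was again 1 after rounding. Without SMG 12 the number at an unadjusted p under 0.05 was 1380 of 16248, still with 0 calls. With arrays weighted by their quality, which limma estimates from how far each lies from its group, 56 of 16248 genes were called, 24 higher and 32 lower in SMG.

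The 10 genes with the smallest p in that contrast, 5 in each direction, had no shared theme that was tested. Ecm1, a matrix protein, was 8.41, 8.66 and 8.79 in SMG, against group means of 8.06 in BC, 8.43 in RMG, 8.42 in L_FMG and 8.06 in H_FMG. The difference was 0.37 (SE 0.10, unadjusted p = 0.000931), and the HFD arrays at 8.50, 8.34 and 8.41 lay close to SMG. Sfrp4, a secreted Wnt antagonist, averaged 5.60 (SD 0.18, n = 3) in SMG against 4.99, 5.41, 5.26 and 4.81 in the same order of groups. Frat1, which binds the Wnt pathway kinase GSK3, averaged 4.80 (SD 0.12, n = 3) against 4.33, 4.37, 4.63 and 4.42. Nmral1, a redox sensor protein, and Hrk were the other higher genes, by 0.30 and 0.33.

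On the lower side, Olfr1251 and Mup6, both of families with near-identical members, sat near the floor of the scale in SMG, at means of 1.30 and 1.49. Muc3a (a membrane mucin), Usp12 (a deubiquitinase) and Tspan2 (a tetraspanin) were lower by 0.36, 0.32 and 0.31. Of these 10 genes, Ecm1, Frat1, Olfr1251, Mup6 and Tspan2 were among the 56 called with array weights, at adjusted p-values of 0.0313 to 0.0338.

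The spread within SMG was of ordinary size for this series. The median SD over genes was 0.136 in SMG and 0.117 in HFD, and the 5 other groups ran from 0.131 in RMG to 0.191 in ND. Genes with a range over 1 among the 3 arrays numbered 255 in SMG and 79 in HFD, with 145 to 599 in the other groups. HFD had the smallest value of all 7 groups by both measures.

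That spread came mainly from 1 array. Between SMG 5 and SMG 8 the median absolute difference over genes was 0.129, inside the 0.122 to 0.138 of HFD pairs, and 28 genes differed by over 1. SMG 12 differed by a median of 0.181 from SMG 5 and 0.159 from SMG 8, with 215 and 90 genes beyond 1. Of the 255 genes of wide range, SMG 12 was the outermost array in 186 (72.9%), a share that was not set against all genes. Its deposited values did not stand apart in scale: its median over probes was 4.30, beside 4.26 and 4.25 for SMG 5 and 8, in a range of 4.23 to 4.39 over the 21 arrays.

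SMG 12 was also the outlying array when all 6 were set side by side. It was lowest of the 6 by over 0.5 in 221 genes and highest by over 0.5 in 57. The same counts for each of the 5 other arrays were 11 to 27 lowest and 14 to 26 highest. Without a minimum gap, SMG 12 was below the 5 others in 3656 genes (22.5%) and above them in 3908 (24.1%).

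**Figure D2:**
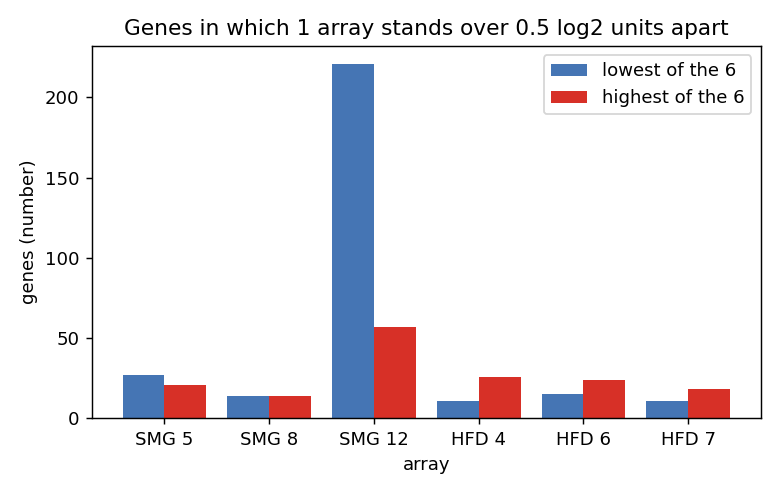
Number of genes in which an array was the lowest (blue) or the highest (red) of the 6 SMG and HFD arrays by more than 0.5 log2 units. SMG 12 reaches 221 lowest and 57 highest, while no other array exceeds 27.

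The 15 genes with the widest range over the SMG arrays included mast cell, macrophage-associated and interferon-induced genes. In 10 of them SMG 12 was the lowest of the 6 arrays, in 3 the highest, and in Elovl3 and Olfr1359 neither. In all 10 of the first kind the ND mean was also below the HFD mean, a share that was not set against all genes. Igkv9-120 was 1.85, 3.24 and 6.92 in SMG and 3.25, 1.77 and 2.72 in HFD, so SMG 12 alone carried a high level. Antibody segments are alike enough that the probe may have read another one.

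Cpa3, the mast cell protease carboxypeptidase A3, was 7.58, 6.90 and 4.75 in SMG and 5.72, 7.90 and 7.50 in HFD. Mcpt4, a mast cell chymase, was 5.19, 4.45 and 3.25 against 3.27, 5.29 and 4.94. In both genes SMG 12 and HFD 4 were the low arrays, so the mast cell range was wide in each group. Over the 10 measured mast cell markers the mean stood 0.49 under the HFD mean in SMG 12 and 0.37 under it in HFD 4. Not all members followed: SMG 12 was the lowest of the 6 arrays in 4 of the 10 and the highest in 3, Kit, Hdc and Gata2. The high-affinity IgE receptor subunits Fcer1a and Ms4a2 lay between 1.72 and 2.85 on all 6 arrays, close to the bottom of the scale.

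Gbp4, an interferon-induced GTPase, ran the other way: 5.81, 5.75 and 7.74 in SMG against 6.42, 6.08 and 6.77 in HFD. Its relative Gbp3 was 5.02, 5.41 and 5.96 against 5.13, 5.04 and 5.49. The 19 measured interferon-induced genes had a median difference of -0.01. Ifi204, an interferon-inducible DNA sensor, was the member with the smallest p, and SMG 12 did not stand apart in it. It was 5.85, 6.02 and 5.83 in SMG, wholly below the 6.17, 6.42 and 6.53 of HFD, a difference of -0.48 (SE 0.20, unadjusted p = 0.0283, adjusted p = 1).

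Several wide-range genes followed 1 pattern, with SMG 12 low and SMG 5 and 8 level with HFD. Il7r, the interleukin-7 receptor chain, was 8.97, 8.92 and 7.33 in SMG, 8.84, 9.06 and 8.75 in HFD and 5.50, 5.49 and 7.87 in ND. Dhrs9, a retinol dehydrogenase, was 8.31, 7.95 and 6.40 against 7.66, 8.19 and 7.46. The adaptor Stap1, the GTPase Arl11 and the DNA helicase Zranb3 had SMG 12 at 6.02, 5.89 and 6.01, and each was above 7.1 in SMG 5 and SMG 8. Il7r was on the T and NK cell list, whose mean was 0.21 lower in SMG 12 than in HFD. That mean includes Il7r, which had the widest gap of the list, 7.33 in SMG 12 against an HFD mean of 8.88. SMG 12 was the lowest of the 6 arrays in 5 of the 10 measured members and the highest in 2.

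Mir181b-1 was the 1 microRNA gene among the 15, and its sequence is shown because the name alone does not say which mature strand or seed it carries. Its hairpin lies at chr1:137966639-137966718 on the plus strand of GRCm38.p6, per RefSeq. The mature 5p strand is given with its seed, bases 2 to 8, in capitals.
mmu-miR-181b-5p: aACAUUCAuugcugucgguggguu
The probe read 3.99, 4.28 and 2.40 in SMG and 4.12, 3.89 and 3.43 in HFD, with SMG 12 the lowest. A probe of this kind can read the precursor or its host transcript, so these are not levels of the mature strand.

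**Figure D3:**
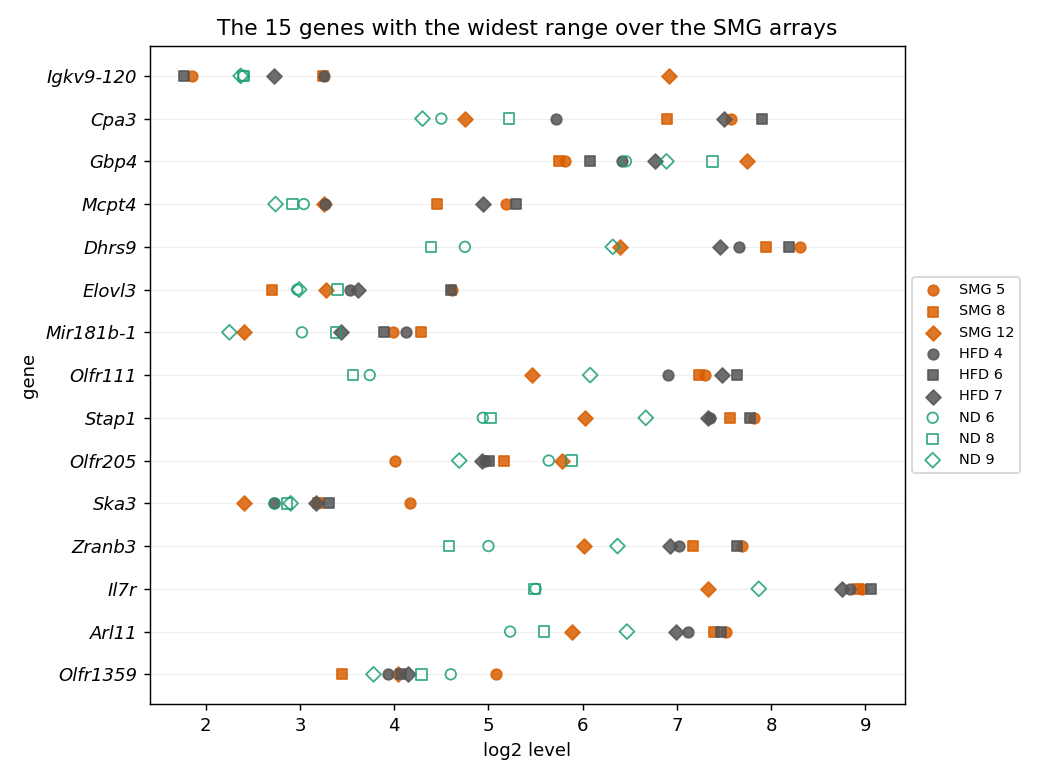
Log2 level of the 15 genes with the widest range over the SMG arrays, with 1 point per array for SMG (orange), HFD (grey) and ND (open green). The SMG 12 diamond lies at the low end, toward the ND points, in genes such as Il7r (7.33), Stap1 (6.02) and Dhrs9 (6.40), and at the high end in Igkv9-120 (6.92) and Gbp4 (7.74).

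Macrophage genes gave the clearest case. Across 12 measured markers of 16, the mean level relative to the HFD mean was 0.22 in SMG 5, 0.07 in SMG 8 and -0.61 in SMG 12, with HFD arrays at -0.07, 0.12 and -0.05 and ND arrays at -1.22, -1.26 and -0.80. SMG 12 was the lowest of the 6 arrays in 11 of the 12, and SMG 5 the highest in 9. The list's median difference was -0.14 (0 members called), and 0.13 without SMG 12, so that array decided its sign.

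Adgre1, the F4/80 antigen that marks mouse macrophages, was 9.57, 9.29 and 8.33 in SMG, 9.17, 9.49 and 9.28 in HFD and 7.50, 7.33 and 8.59 in ND. C1qb, a complement chain made by tissue macrophages, was 10.93, 10.78 and 9.84 in SMG and 10.67, 10.93 and 10.65 in HFD. Ms4a7, a macrophage membrane protein, was 8.64, 8.37 and 7.40 against 8.19, 8.61 and 8.32. In each, SMG 12 was about 0.8 or more below the lowest HFD array while SMG 5 was among the highest. Cd163, a scavenger receptor of resident macrophages, was the exception, at 6.26, 6.38 and 6.63 in SMG and 6.31, 5.90 and 6.40 in HFD, with SMG 12 the highest. For Adgre1, C1qb and Ms4a7 the SMG 12 level lay within the means of the other supplemented groups. In BC, RMG, L_FMG and H_FMG these were 8.93, 9.57, 8.62 and 8.24 for Adgre1 and 7.82, 8.69, 7.39 and 6.90 for Ms4a7. For C1qb they ran from 9.82 in H_FMG to 10.87 in RMG.

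Genes of lipid-associated macrophages, the lipid-laden cells of obese fat, went the same way. Their mean relative to HFD was 0.14, -0.04 and -0.61 in SMG 5, 8 and 12, and SMG 12 was the lowest in 10 of 12 measured members. The median difference was -0.13 with all arrays and 0.06 without SMG 12. Atp6v0d2, a proton pump subunit strong in these cells, was 10.57, 10.33 and 9.02 in SMG, 10.34, 10.57 and 10.26 in HFD and 7.55, 7.15 and 9.20 in ND. Ctsk, the protease cathepsin K, was 8.58, 8.38 and 7.15 against 8.25, 8.78 and 8.23 in HFD. Lipa, the lysosomal acid lipase, was 11.14, 11.05 and 10.25 against 11.04, 11.18 and 10.93. In Atp6v0d2, Ctsk and Lipa SMG 12 was also below the lowest mean of the other supplemented groups, that of H_FMG at 9.25, 7.24 and 10.37. Fabp5, a lipid carrier of macrophages and adipocytes, varied less, at 7.32, 7.04 and 7.03 against 7.28, 7.42 and 7.16.

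Lysosome and proton pump genes shared members with that list and its pattern. Their mean was 0.13, 0.01 and -0.47 relative to HFD in SMG 5, 8 and 12, SMG 12 was the lowest in 13 of 14, and the median moved from -0.09 to 0.06 without it. Npc1, which exports cholesterol from lysosomes, was 8.17, 8.05 and 7.48 in SMG and 7.99, 8.13 and 8.02 in HFD. The protease Ctss was 10.14 in SMG 12 and between 10.72 and 11.06 on the 5 other arrays. Neu1, a lysosomal sialidase, was the exception, at 6.98, 6.82 and 6.80 against 6.77, 6.74 and 6.81.

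Other immune lists stood closer to HFD. The Toll-like receptor and endotoxin list had SMG 12 at -0.35 relative to HFD and a median difference of -0.13, which was 0.04 without SMG 12. Ly96, the co-receptor through which endotoxin is sensed, was 8.66, 8.39 and 7.74 in SMG and 8.44, 8.60 and 8.56 in HFD. Antigen presentation genes had SMG 12 at -0.24, with H2-Aa at 9.69, 9.75 and 9.40 against 9.77, 9.68 and 9.75. The mean of the neutrophil list was within 0.11 of the HFD mean on every SMG array, but single members differed by more. S100a8, a calcium-binding protein, was 5.88, 5.45 and 5.10 in SMG and 5.22, 5.43 and 5.54 in HFD. SMG 12 was the lowest of the 6 arrays in 3 of the 8 measured members and the highest in 1.

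Cell cycle genes separated SMG 5 from SMG 12 by more than any other of the 43 lists. The mean of 20 measured members relative to HFD was 0.53 in SMG 5, 0.10 in SMG 8 and -0.44 in SMG 12, with HFD arrays at -0.18, 0.24 and -0.06. SMG 12 was the lowest array in 17 of 20 and SMG 5 the highest in 18. The median difference of 0.08 became 0.31 without SMG 12 and -0.15 without SMG 5. The sign of the list's median thus depended on which SMG array was left out.

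Top2a, the DNA topoisomerase of dividing cells, was 6.31, 5.87 and 5.16 in SMG, 5.42, 5.84 and 5.34 in HFD and 4.87, 4.64 and 4.74 in ND. Bub1b, a spindle checkpoint kinase, was 5.69, 5.34 and 4.88 against 4.91, 5.29 and 5.05 in HFD. Both had SMG 5 above and SMG 12 below all HFD arrays. Rrm2, a ribonucleotide reductase subunit that makes DNA building blocks, was 5.19, 4.61 and 4.48 against 4.46, 4.71 and 4.49. Tyms, thymidylate synthase, was 6.08, 5.65 and 5.48 against 5.24, 5.65 and 5.65, with HFD 4 the lowest.

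The promoters of these 4 genes are shown because these members were high or low together on the SMG arrays, and many promoters of dividing-cell genes carry the CCAAT box. Each stretch is the 120 bases before the annotated start in RefSeq on GRCm38.p6, read along the gene, with CCAAT or its reverse complement ATTGG in capitals: Tyms at chr5:30073626-30073745 on the minus strand, Bub1b at chr2:118598091-118598210 on the plus strand, Rrm2 at chr12:24708134-24708253 on the plus strand and Top2a at chr11:99024190-99024309 on the minus strand.
Top2a: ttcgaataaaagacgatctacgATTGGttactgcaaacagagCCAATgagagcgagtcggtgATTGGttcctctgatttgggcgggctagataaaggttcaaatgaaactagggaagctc
Bub1b: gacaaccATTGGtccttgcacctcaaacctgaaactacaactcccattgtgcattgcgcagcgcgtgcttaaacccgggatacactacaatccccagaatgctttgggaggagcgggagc
Rrm2: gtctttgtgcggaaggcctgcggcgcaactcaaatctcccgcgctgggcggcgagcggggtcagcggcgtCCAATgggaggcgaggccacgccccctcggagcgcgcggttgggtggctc
Tyms: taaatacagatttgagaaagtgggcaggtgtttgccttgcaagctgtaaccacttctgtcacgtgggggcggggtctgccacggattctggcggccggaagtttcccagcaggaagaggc
In this window Top2a held 3 such matches, Bub1b and Rrm2 held 1 each and Tyms 0. Over the 250 bases before the start and both strands, CCAAT was found in 12 of the 16 cell cycle members with a listed promoter (75%), beside 4697 of 12382 measured genes (37.9%). The CHR letters TTTGAA, also searched on both strands, were found in 4 of the 16 (25%), beside 1979 of the 12382 (16%). The CLEAR core TCACGTG, searched in lysosome promoters, was found in 2 of 10 (20%), beside 543 of the 12382 (4.39%). A match describes letters and not a bound site.

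Endothelial genes ran opposite to the macrophage genes. SMG 12 was the highest of the 6 arrays in all 11 measured members, and the mean relative to HFD was -0.06, -0.02 and 0.36 in SMG 5, 8 and 12, beside 0.51, 0.52 and 0.22 in the ND arrays. The median difference was 0.08, and -0.05 without SMG 12. Eng, the co-receptor endoglin, was 8.51, 8.57 and 8.99 in SMG and 8.42, 8.36 and 8.70 in HFD. Tek, the angiopoietin receptor Tie2, was 7.24, 7.32 and 7.55 against 7.25, 7.03 and 7.39. Vwf, von Willebrand factor, was 6.40, 6.50 and 6.54 against 6.35, 6.16 and 6.43, with a narrower gap.

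Adipocyte identity genes had means of -0.19, 0.00 and 0.25 relative to HFD in SMG 5, 8 and 12, and SMG 12 was the highest in 8 of 11. Pck1, the glyceroneogenic enzyme that supplies the backbone of triglyceride, was 9.25, 10.04 and 10.71 in SMG, 9.94, 9.35 and 9.87 in HFD and 11.03, 10.89 and 10.44 in ND. Acvr1c, an activin receptor of adipocytes, was 6.96, 7.15 and 7.59 in SMG and 7.06, 7.04 and 7.24 in HFD. SMG 5 was thus at the low end and SMG 12 at the high end of the 6 arrays for both.

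Triglyceride synthesis genes had SMG 12 at 0.35 relative to HFD, with SMG 5 at -0.06 and SMG 8 at 0.07. The median difference was 0.14, and -0.01 without SMG 12. Gpat3, which takes the first acylation step, was 6.55, 6.82 and 7.75 in SMG, 6.79, 6.47 and 6.79 in HFD and 8.02, 8.11 and 6.99 in ND. Lpin1, the phosphatidate phosphatase lipin-1, was the member in which all SMG arrays exceeded HFD: 9.02, 9.21 and 9.37 against a mean of 8.93 (SD 0.09, n = 3), a difference of 0.27 (SE 0.18, unadjusted p = 0.149). Dgat1, which completes triglyceride, was 8.07, 8.12 and 8.38 against 8.12, 7.97 and 8.05. G0s2, an inhibitor of the lipase ATGL on the lipolysis list, was 7.47, 7.71 and 8.42 against 7.62, 7.53 and 7.60.

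**Figure D4:**
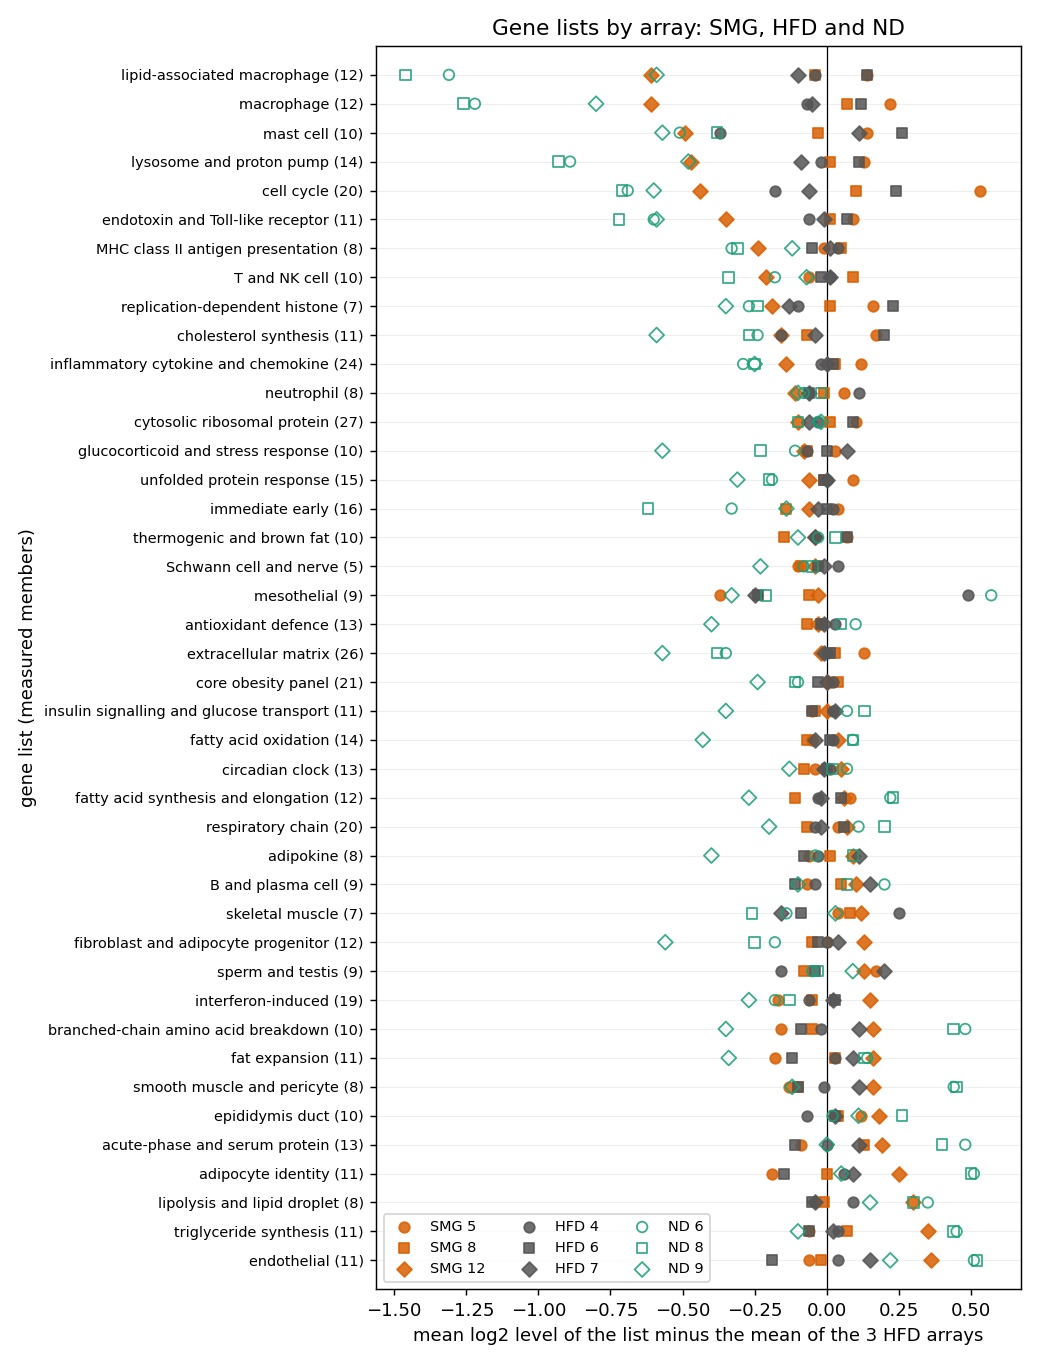
Mean log2 level of each gene list relative to the mean of the 3 HFD arrays, with 1 point per array for SMG (orange), HFD (grey) and ND (open green); the number of measured members follows each name, and the list with 1 measured member is left out. The SMG 12 diamond lies at -0.61 for both macrophage lists and 0.36 for endothelial genes, on the side of the ND points, and the SMG 5 circle at 0.53 for cell cycle genes and -0.37 for mesothelial genes.

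Across the 43 lists, 37 had a median difference within 0.1 of 0 and 0 had a called member. The 6 beyond 0.1 were macrophage, lipid-associated macrophage, mesothelial, endotoxin and Toll-like receptor, triglyceride synthesis and lipolysis and lipid droplet genes. The mesothelial median of -0.19 became 0.12 without HFD 4, whose mesothelial mean was 0.49 above the HFD mean. Upk1b, a uroplakin of mesothelium, was 6.44 in HFD 4 and between 4.70 and 5.43 on the 5 other arrays. Mesothelium coats the fat pad, and how much of it entered each sample was not tested.

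A diet axis scored the ND, HFD and SMG arrays on genes that set ND apart from the other supplemented groups, whose own scores are not given here. It used 902 genes (5.55%) called between ND and the mean of BC, RMG, L_FMG and H_FMG, 700 higher and 202 lower in those groups, a contrast that holds no SMG or HFD array. The score of an array is the mean of the 700 minus the mean of the 202. It was 1.79, 1.69 and 1.89 in ND and 3.02, 3.25 and 3.06 in HFD. The ND arrays took part in choosing the genes, so their low scores follow from that choice. In SMG 5, 8 and 12 the score was 3.30, 3.13 and 2.59, so SMG 5 exceeded every HFD array and SMG 12 lay under them all. The group means were 3.01 (SD 0.37, n = 3) in SMG and 3.11 (SD 0.13, n = 3) in HFD, a difference of -0.10 (SE 0.22), which was 0.12 without SMG 12. With 3 arrays against 3 an exact permutation test cannot go below p = 0.1.

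The shift of SMG 12 was spread over the diet genes. SMG 12 lay below all HFD arrays in 566 of the 700 genes raised in the other supplemented groups (80.9%). The share was 5.29% for SMG 5 and 13.6% for SMG 8, and 27.9% of all genes for SMG 12. SMG 12 lay above all HFD arrays in 102 of the 202 lowered genes (50.5%), beside 31.3% of all genes. SMG 5 lay above every HFD array in 396 of the 700 (56.6%), beside 29% of all genes, and below every HFD array in 60 of the 202 (29.7%), beside 22.2% of all genes. Of the 221 genes in which SMG 12 was lowest by over 0.5, 145 (65.6%) belonged to the 700, which are 4.31% of all genes. Of the 57 in which it was highest by that much, 2 (3.51%) belonged to the 202, which are 1.24% of all genes.

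**Figure D5:**
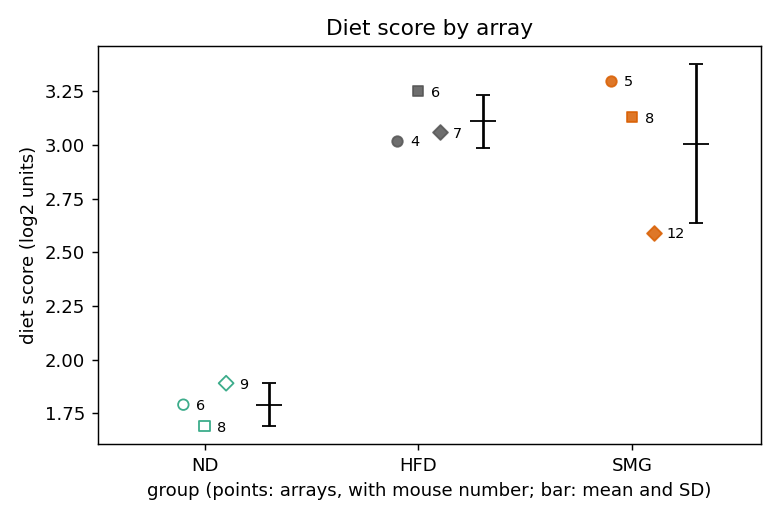
Diet score of each ND, HFD and SMG array in log2 units, with mouse numbers beside the points and the mean with its SD as a bar to the right of each group. SMG 5 and SMG 8, at 3.30 and 3.13, lie at the level of HFD, SMG 12 at 2.59 lies below it, and the ND arrays lie between 1.69 and 1.89.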

How the data were processed

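The labels' protocols give Trizol extraction and biotin labelling of sense cDNA for GeneChip whole-transcript arrays. The deposited values are log2 levels, 1 per probe and array. The summarisation and normalization by the authors, and the log base, were not given in the sources used here. Base 2 was taken from their range of 0.844 to 12.7. The number of arrays limits the precision. Of 24291 complete probes, 17067 had 1 gene symbol in the platform annotation, 1139 several and 6085 none. The brightest probe stood for the 668 genes with more than 1, leaving 16248 genes. The table was held in part: 17 coding genes of chromosomes 7, 8, 9, X and Y were measured, and others were not analysed here. Array columns without a sample numbered 0.

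The model (limma 3.58.1, R 4.3.3) had a coefficient for every group, used all 21 arrays and an intensity trend, and was tested on simulated data. Each p-value was two-sided and adjusted by Benjamini-Hochberg over all genes, with a threshold of 0.05. Named genes are the 10 smallest p in each direction, the 15 widest SMG ranges, the 5 smallest p per direction against the other supplements, up to 4 smallest p per list and the obesity panel, without predicted genes. Fcer1a, Ms4a2, Kit, Gata2 and S100a8 were named after their values were seen. The comparison, the 43 lists (482 of 723 genes measured) and the tests were chosen with earlier results of these data known. Alternatives were quantile normalization, median centring, fewer arrays, no dim genes, every probe, no trend, array weights and leaving out each array. No scanning date was given, so batches were not checked.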

Additional observations from a re-analysis of the deposited data

Results flagged for a closer look

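In each of 4 results below, every SMG array differed from the HFD mean in 1 direction and every array of another supplemented group in the opposite direction. The comparisons share the same 3 HFD arrays, and the difference between the 2 groups was not tested. Fbln2, fibulin-2, was higher than HFD by 0.28 in SMG and stood at -0.16 in H_FMG. Its mean in RMG, 8.64, was above the 8.58 of SMG, so the rise was not particular to SMG. The mesothelial list averaged -0.16 in SMG and 0.13 in RMG, both against an HFD mean that HFD 4 raised. The skeletal muscle list averaged 0.08 in SMG and -0.06 in BC. The core obesity panel averaged 0.01 in SMG and -0.01 in BC, both small beside the median SE of 0.147 for a single gene.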

How the results depend on the processing

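Genes called between SMG and HFD numbered 0 to 1 when each array was left out in turn, the 1 being S100a5 without SMG 5, and 0 under the 7 other settings. At an unadjusted p under 0.05 the count ran from 179 of 12186 without dim genes to 1223 of 16248 with array weights. It was 300 of 16248 as reported and 519 of 16248 with only the 6 arrays. Calls against the other supplements were 56 with array weights and 0 elsewhere. The median SD within SMG was 0.136 over its 3 arrays. When 1 SMG array was left out it ran from 0.0911 (without SMG 12) to 0.128. Those values rest on fewer arrays and are not comparable with 0.136. The genes with the smallest p against HFD and against the other supplements kept their direction under each alternative in which they were tested. Other named genes did not all do so. C1qb differed by -0.23 with all arrays, but SMG 5 and SMG 8, at 10.93 and 10.78, both lay above its HFD mean of 10.75. Untested values did change sign: the diet score and several list medians without SMG 12, the cell cycle median without SMG 5 and the mesothelial median without HFD 4, as given in the report, and list medians within 0.1 of 0 under several alternatives. No paired analysis was possible because the labels pair no SMG array with an HFD array. With 3 arrays a group and a spread shared over all groups, the unadjusted 95% interval of a typical gene reached about 0.3 log2 units to either side. A call after adjustment over all genes needed more, since neither Cytl1 at -0.82 nor S100a5 at -0.70 was called. Dim genes lie near the bottom of the scale.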

Other observations

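The fat pad lies on the epididymis, and genes of that duct gave faint values. Gpx5, a glutathione peroxidase of epididymal fluid, was 2.46, 2.38 and 3.22 in SMG and 2.23, 2.15 and 1.89 in HFD, a difference of 0.60 (SE 0.26, unadjusted p = 0.0299, adjusted p = 1). Acr, the sperm protease acrosin, was 5.35, 5.30 and 5.45 against 5.18, 4.89 and 5.14 (unadjusted p = 0.00764). SMG arrays lay above HFD in both, as did the means of ND and of every other supplemented group. The duct list as a whole had a median difference of only 0.06 and the sperm list 0.10. Lcn5, a lipocalin of the duct, was 4.03, 3.94 and 4.65 against 4.02, 4.12 and 3.87.

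Itln1, the mesothelial and adipose lectin omentin, was 3.13, 2.77 and 2.80 in SMG and 2.52, 2.45 and 2.57 in HFD, a difference of 0.38 (unadjusted p = 0.0287). Clock genes had a median difference of 0.00 after rounding, with Bhlhe40, a repressor in the clock, at 6.91, 6.62 and 6.46 against 6.90, 7.03 and 6.86 (unadjusted p = 0.0432). Cholesterol synthesis genes had a median of -0.05, although Hmgcs1, an early enzyme of that pathway, was 9.25, 9.16 and 9.39 in SMG and between 8.90 and 9.04 in HFD. Ccl7, a monocyte attractant, was 6.58, 6.46 and 6.66 against 7.20, 6.88 and 6.70, with SMG wholly below HFD and no call. Fmod, the collagen-binding fibromodulin, was 5.56, 5.61 and 5.65 against 6.34, 5.78 and 5.92, while the 26 measured matrix genes had a median difference of 0.08. The matrix mean of SMG 12 was -0.02 relative to HFD.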
